A study of Mus musculus with 9 samples.

Results

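Immediate early genes are genes, many of them for transcription factors, that cells switch on from an inactive or low state without first making new protein. Transcript levels of 10 of them (Fos, Fosb, Jun, Junb, Jund, Egr1, Egr2, Egr3, Atf3 and Nr4a1) were followed in whole mouse retina, and all 10 were found by symbol among the 21769 genes of each count table. The members were picked by name, with earlier results of these data known. The study sequenced polyadenylated RNA of 3 groups with 3 libraries each, every library made from 2 retinae. The rd10 retinae, which the labels call degenerated, came from mice at postnatal day 61. The GFP retinae, called normal, came from GFP-expressing mice at postnatal day 42, the age given for a line written Gg13 and read here as that of this group. The wild type retinae, also called normal, came from mice at postnatal day 48. Mice homozygous for rd10 carry a missense change in Pde6b, a subunit of the rod phosphodiesterase, and lose their rods after birth. The promoter that drives GFP, the strain background, the sex of the mice, and the lighting and hour of dissection are not given in the labels used here, nor is it said whether libraries of a group came from different animals. Each genotype was collected at an age of its own, so genotype and age cannot be told apart.

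In resting cells, immediate early genes carry serum response factor with ternary complex factors such as ELK1, and CREB, already bound near their start. Growth factor signals reach them through MAP kinases, and calcium and cyclic AMP through CREB kinases, and transcription then begins within minutes and ceases soon after. FOS proteins pair with JUN proteins to form AP-1, EGR proteins bind GC-rich sites through zinc fingers, ATF3 is a stress-induced member of the ATF/CREB family, and NR4A1 is an orphan nuclear receptor. In retina, light, injury and ischaemia are known to induce several of them.

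The libraries held 9597635 to 12149448 counts, and 1 CPM (the usual depth-scaled count, with library sizes adjusted by TMM, the trimmed mean of log ratios between libraries) stood for 8.72 to 13.6 counts. Library pairs of a group differed by 13.0 to 76.1 times the sampling noise (chi-square per degree of freedom), and the pairs with GFP 2 gave the top values, 52.2 and 76.1. Lens RNA (Cryaa at 100 CPM or more) was present in rd10 2, GFP 1, wild type 2 and wild type 3. The summed level of 6 rod markers was 335 to 956 CPM in rd10, 74165 to 82900 CPM in GFP and 68612 to 91778 CPM in wild type, and all 6 fell in rd10 against either normal group. All 6 Müller glia markers rose, with sums of 7849 to 8450 CPM in rd10, 4556 to 5471 CPM in GFP and 3688 to 5041 CPM in wild type. All 6 microglia markers rose, with sums of 142 to 156 CPM in rd10, 37.2 to 49.1 CPM in GFP and 45.1 to 51.1 CPM in wild type, as did 4 of 6 reactive glia markers, with sums of 355 to 609 CPM in rd10, 41.6 to 54.2 CPM in GFP and 38.0 to 58.3 CPM in wild type. Against each normal group, all 6 amacrine, 5 of 6 bipolar, 4 of 6 ganglion cell, 2 of 6 pigment epithelium and 1 of 5 endothelial markers also rose, 1 of 5 cone markers rose and 1 fell, and none of the 6 lens markers nor the 1 blood marker tested passed in edgeR (at an unadjusted p under 0.05, 0 lens markers in either comparison and the blood marker against wild type only; DESeq2 called 0). Of all genes tested, 14.5% rose and 13.9% fell against wild type, and 15.2% rose and 15% fell against GFP. The part of these marker differences in the results that follow was not tested, and in bulk tissue fewer cells of a type and less RNA per cell cannot be told apart.

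In rd10 retina, Egr1 transcripts stood 4.10-fold above wild type and 3.88-fold above GFP, and Atf3 transcripts stood 5.46-fold and 3.25-fold below them. The other 7 members that could be tested did not pass in either comparison. Of the 9 members with enough counts to test, 1 rose, 1 fell and 7 did not pass against wild type, where 28.4% of all 14300 genes tested passed (14.5% higher and 13.9% lower). Against GFP the members again gave 1, 1 and 7, beside 30.2% of all genes (15.2% higher and 15% lower), and these comparisons share the rd10 libraries. The median log2 fold change of the 9 members was 0.34 against wild type and 0.31 against GFP, beside -0.03 and -0.02 over all genes. Passing means an adjusted p under 0.05 (Benjamini-Hochberg, over all genes tested) in the quasi-likelihood test of edgeR, and fold changes are rd10 over the normal group.

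**Figure D1:**
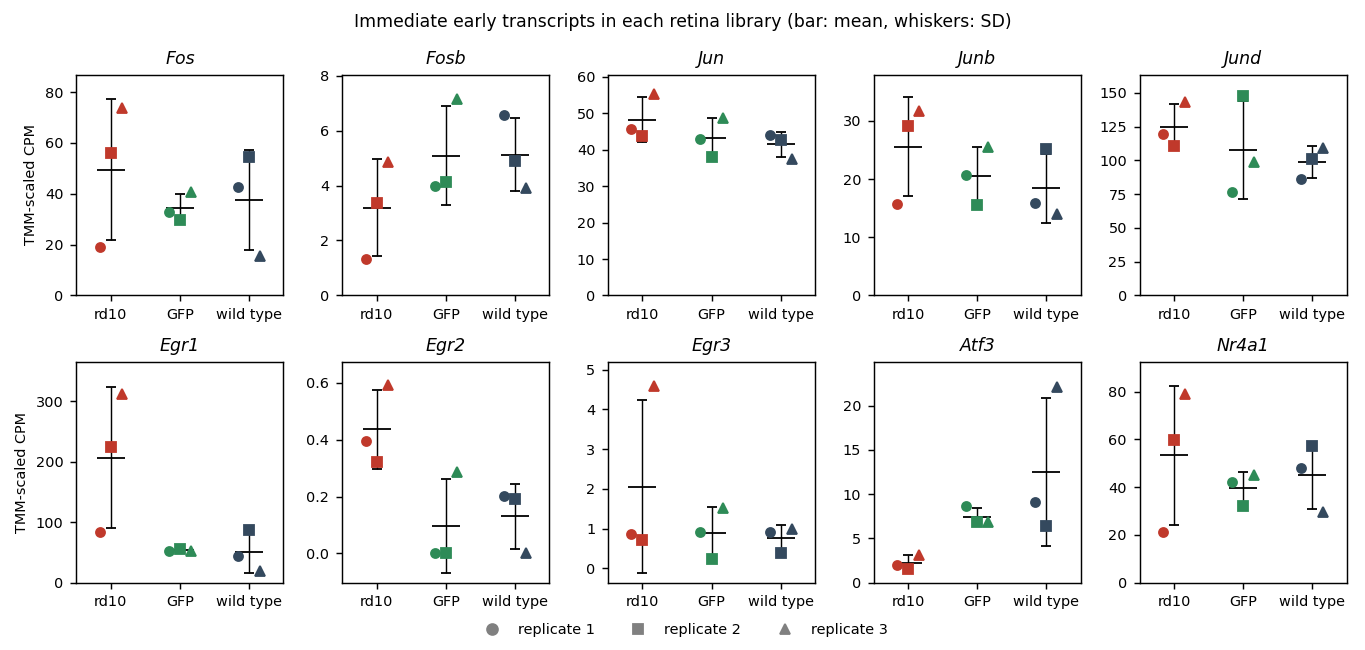
Points give the TMM-scaled CPM (y axis, linear) of each of the 10 genes in single libraries of rd10, GFP and wild type retina, with marker shape for the replicate number, a bar for the mean and whiskers for the SD (n = 3 each). Egr1 lies between 83.2 and 312.5 CPM in rd10 and between 52.0 and 55.8 CPM in GFP, and rd10 replicate 3 is the highest rd10 library for all 9 genes tested.

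Egr1 encodes a zinc-finger factor that reports recent signalling in many neurons and glia. It lies on the plus strand of chromosome 18 (mm9, 35020861 to 35024610). Its levels were 83.2, 225 and 312.5 CPM in rd10 1, 2 and 3, 52.0, 55.8 and 52.2 CPM in GFP 1, 2 and 3, and 44.8, 87.6 and 18.8 CPM in wild type 1, 2 and 3. All 3 rd10 libraries were above all GFP libraries, whereas rd10 1 lay just under wild type 2, so that the rd10 and wild type ranges overlapped. The means were 206.9 ± 115.7 CPM in rd10, 53.3 ± 2.15 CPM in GFP and 50.4 ± 34.7 CPM in wild type (SD, n = 3 each). The log2 fold change was 2.04 (SE 0.53, adjusted p = 0.0165 in edgeR) against wild type and 1.96 (SE 0.53, adjusted p = 0.0187 in edgeR) against GFP. Leaving out rd10 3 ended both calls, at log2 changes of 1.64 (edgeR adjusted p = 0.0606) and 1.54 (0.0703), over ranges of 0.00445 to 0.164 and 0.00544 to 0.0703 across alternatives. Without wild type 2 the log2 change against wild type was 2.71 (edgeR adjusted p = 0.0102). Leaving out GFP 3 ended the call against GFP (1.95, edgeR adjusted p = 0.0562), and leaving out the 4 libraries with lens RNA ended both (2.14 with 0.164 and 1.87 with 0.0561), although these log2 changes stayed close to those of all libraries.

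Egr2 and Egr3, close relatives of Egr1, were near the limit of detection. Egr2 (chromosome 10, mm9, 67000617 to 67004936) had 5, 4 and 8 reads in rd10 1, 2 and 3, 0, 0 and 3 in GFP 1, 2 and 3, and 2, 2 and 0 in wild type 1, 2 and 3, and it did not pass the filter on low counts. Each rd10 library held more reads than any normal library, but the gap was as small as 4 reads (0.322 CPM) in rd10 2 against 3 (0.286 CPM) in GFP 3. Of all genes tested, 26.1% lay higher in rd10 without overlap against wild type, and 25.1% did against GFP. Summed per group, 17 reads in rd10 stood against 3 in GFP and 4 in wild type, which at the effective library sizes gave ratios of 4.44 (95% exact interval 1.28 to 23.6) to GFP and 3.33 (1.09 to 13.6) to wild type. These intervals cover counting error only, not the spread between retinae.

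Egr3 (chromosome 14, mm9, 70477252 to 70479964) had 11, 9 and 62 reads in rd10 1, 2 and 3, 10, 2 and 16 in GFP 1, 2 and 3, and 9, 4 and 10 in wild type 1, 2 and 3. A single library, rd10 3, held far more reads than any other, and the other rd10 libraries fell within the normal range. The log2 change of 1.42 against wild type (SE 0.83, adjusted p = 0.216 in edgeR) and of 1.19 against GFP (SE 0.81, adjusted p = 0.284 in edgeR) did not pass. Without rd10 3 the log2 difference from wild type was 0.085 and that from GFP turned to -0.16, and without GFP 3 the difference from GFP was 1.80.

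Atf3, whose product dimerizes with JUN and other basic leucine zipper proteins and is often induced by stress and axon injury, lies on the minus strand of chromosome 1 (mm9, 192994176 to 193007212). Its levels were 2.05, 1.61 and 3.17 CPM in rd10 1, 2 and 3, 8.62, 6.88 and 6.86 CPM in GFP 1, 2 and 3, and 9.09, 6.45 and 22.1 CPM in wild type 1, 2 and 3. Every rd10 library was below every normal library, and wild type 3 stood well above the other 5 normal libraries. Of the 9 members, 2 had no overlap between rd10 and wild type, beside 50.5% of all genes: Atf3 lay lower (24.4% of all genes did) and Jund higher (26.1%). Between rd10 and GFP 2 had no overlap, beside 48.2% of all genes, Egr1 higher (25.1%) and Atf3 lower (23.1%). Mean levels were 2.28 ± 0.805 CPM in rd10, 7.45 ± 1.01 CPM in GFP and 12.5 ± 8.36 CPM in wild type (SD, n = 3 each). In edgeR the log2 fold change was -2.45 (SE 0.46, adjusted p = 0.00349) against wild type, a 5.46-fold lower level, and -1.70 (SE 0.46, adjusted p = 0.0182) against GFP, a 3.25-fold lower level. The call against GFP ended without rd10 1 (-1.62, edgeR adjusted p = 0.0678) or rd10 2 (-1.49, 0.0699), and both calls ended without the 4 libraries with lens RNA (-1.80, 0.0909 against wild type and -1.39, 0.0624 against GFP). Across alternatives the adjusted p ran between 3.38e-06 and 0.0909 against wild type and between 0.0020 and 0.0699 against GFP. Without wild type 3 the log2 difference from wild type was -1.76 and still passed (edgeR adjusted p = 0.00882).

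**Figure D2:**
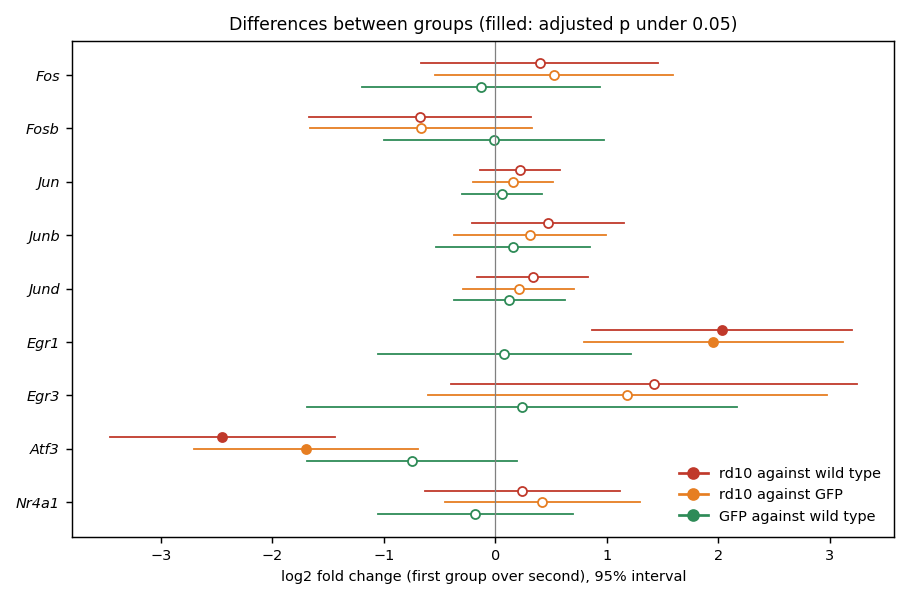
Points give the log2 fold change of 9 genes (rows) for rd10 against wild type, rd10 against GFP and GFP against wild type, each the first group over the second, with 95% intervals as lines and filled points for an adjusted p under 0.05 in edgeR. Egr1 (2.04 and 1.96) and Atf3 (-2.45 and -1.70) are the filled ones, and every interval for GFP against wild type includes 0.

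Fos, the AP-1 partner most used as a mark of recent activity, lies on the plus strand of chromosome 12 (mm9, 86814851 to 86818219). It had 19.0, 55.9 and 73.6 CPM in rd10 1, 2 and 3, 32.7, 29.6 and 40.7 CPM in GFP 1, 2 and 3, and 42.7, 54.3 and 15.6 CPM in wild type 1, 2 and 3. The highest value was an rd10 library and the lowest 2 were wild type 3 and rd10 1, so the groups overlapped. Its log2 change of 0.40 against wild type (SE 0.48, adjusted p = 0.559 in edgeR) had a 95% interval of -0.66 to 1.46, and that of 0.53 against GFP (SE 0.48, adjusted p = 0.425 in edgeR) one of -0.54 to 1.59.

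Fosb, which encodes a FOS relative that takes the same place in AP-1 (chromosome 7, mm9, 19888045 to 19895394), had 1.34, 3.38 and 4.87 CPM in rd10 1, 2 and 3, 3.99, 4.13 and 7.15 CPM in GFP 1, 2 and 3, and 6.56, 4.91 and 3.91 CPM in wild type 1, 2 and 3. Only rd10 1 and rd10 2 lay under all normal libraries, and rd10 3 fell among them. The log2 changes of -0.68 against wild type (SE 0.45, adjusted p = 0.280 in edgeR) and -0.67 against GFP (SE 0.45, adjusted p = 0.279 in edgeR) did not pass.

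The JUN genes encode the partners that FOS proteins need, and JUN proteins can also pair with each other. Jun, on chromosome 4 (mm9, 94715727 to 94718913, minus strand), had 45.6, 43.9 and 55.3 CPM in rd10 1, 2 and 3, 43.0, 37.9 and 48.8 CPM in GFP 1, 2 and 3, and 44.1, 42.7 and 37.5 CPM in wild type 1, 2 and 3. No group stood apart, and the coefficient of variation within groups was the smallest of the 9 genes tested. Log2 changes of 0.22 against wild type (95% interval -0.14 to 0.58, adjusted p = 0.334 in edgeR) and 0.16 against GFP (-0.20 to 0.52, 0.484) did not pass. With plain library totals in place of TMM, Jun passed in both comparisons (0.51 with an edgeR adjusted p of 0.0316, and 0.48 with 0.0358), but that scaling raised the median of all genes by 0.29 and 0.33, and relative to the median gene Jun then stood at 0.25 and 0.18.

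Junb, an AP-1 member that often restrains JUN (chromosome 8, mm9, 87500808 to 87502647), had 15.8, 29.2 and 31.7 CPM in rd10 1, 2 and 3, 20.7, 15.6 and 25.5 CPM in GFP 1, 2 and 3, and 15.96, 25.2 and 14.0 CPM in wild type 1, 2 and 3. As for Fos, rd10 2 and rd10 3 were high and rd10 1 was among the low libraries. The log2 changes of 0.47 against wild type (SE 0.31, adjusted p = 0.273 in edgeR) and 0.31 against GFP (SE 0.31, adjusted p = 0.465 in edgeR) did not pass. Jun and Junb each have a single exon, so their levels can be set side by side per length of gene, and per kilobase Jun had 14.3, 13.8 and 17.3 CPM in rd10 1, 2 and 3 and Junb had 8.59, 15.9 and 17.2 CPM in the same libraries. On this scale Jun was above Junb in rd10 1, below it in rd10 2 and about level with it in rd10 3. Jun had 11.9 to 15.3 CPM per kilobase in GFP and 11.8 to 13.8 in wild type, and Junb had 8.47 to 13.8 in GFP and 7.63 to 13.7 in wild type. In the normal libraries Jun was above Junb in all but wild type 2.

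Jund, the JUN gene that is usually kept on in resting cells (chromosome 8, mm9, 73221638 to 73224515), had 119.8, 111 and 143 CPM in rd10 1, 2 and 3, 76.8, 147.6 and 99.2 CPM in GFP 1, 2 and 3, and 85.8, 101 and 109 CPM in wild type 1, 2 and 3. All rd10 libraries were above all wild type libraries by a small margin, while GFP 2 held the highest of the 9 levels. The log2 change of 0.34 against wild type (SE 0.23, adjusted p = 0.282 in edgeR) and of 0.21 against GFP (SE 0.23, adjusted p = 0.499 in edgeR) did not pass, and the second passed (0.50, edgeR adjusted p = 0.0459) when wild type 3 and GFP 2 were left out.

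Nr4a1, on the plus strand of chromosome 15 (mm9, 101097277 to 101105225), encodes a nuclear receptor that acts without a known hormone and is induced by calcium and cyclic AMP signals. It had 21.3, 59.6 and 78.9 CPM in rd10 1, 2 and 3, 42.1, 32.1 and 45.1 CPM in GFP 1, 2 and 3, and 47.97, 57.3 and 29.8 CPM in wild type 1, 2 and 3. The order of the libraries was nearly that of Fos, with rd10 3 at the top and rd10 1 and wild type 3 at the bottom. Log2 changes of 0.24 against wild type (SE 0.40, adjusted p = 0.668 in edgeR) and 0.42 against GFP (SE 0.40, adjusted p = 0.438 in edgeR) did not pass.

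Libraries kept a similar order for many of these genes. In rd10, replicate 3 was the highest library for 9 of 9 members tested, and the lowest was rd10 1 for 5 (Fos, Fosb, Junb, Egr1 and Nr4a1) and rd10 2 for 4. In wild type, replicate 3 was the lowest for 6 and the highest for 3 (Jund, Egr3 and Atf3). In GFP, replicate 3 was the highest for 6. The share of all genes with the same highest or lowest library was not computed. rd10 1 and rd10 3, which were farthest apart for Fos and Egr1, held little lens RNA (Cryaa at 0.158 and 0.369 CPM). Their Müller glia markers summed to 8450 and 8284 CPM and their microglia markers to 142 and 144 CPM. Rod markers summed to 335, 696 and 956 CPM in rd10 1, 2 and 3, and reactive glia markers to 355, 497 and 609 CPM, both in the order that Fos, Egr1 and Nr4a1 took. Bipolar markers summed to 2084, 1967 and 2598 CPM in rd10 1, 2 and 3, and amacrine, ganglion cell, pigment epithelium and endothelial markers were also highest in rd10 3 and lowest in rd10 2. The part of these markers in the order of the libraries was not tested.

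Expressed as reads per Fos read in the same library, Nr4a1 varied little outside wild type 3. Its ratio was 1.125, 1.07 and 1.07 in rd10 1, 2 and 3, 1.29, 1.09 and 1.11 in GFP 1, 2 and 3, and 1.12, 1.05 and 1.90 in wild type 1, 2 and 3. The groups overlapped and wild type 3 alone stood apart, with Fos lower relative to Nr4a1 than in the other 8 libraries. The highest Nr4a1 ratio was 1.80 times the lowest, the smallest such figure among the 14299 other genes tested (median 6.14), and Junb ranked 4 at 2.40. This measure was chosen after the levels had been seen, it favours genes with many reads, and it is given as a description without a test.

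Egr1 kept a nearly fixed ratio to Fos within rd10, at a height of its own. It had 4.39, 4.02 and 4.25 reads per Fos read in rd10 1, 2 and 3, 1.59, 1.89 and 1.28 in GFP 1, 2 and 3, and 1.05, 1.61 and 1.20 in wild type 1, 2 and 3. All rd10 libraries were above all 6 normal libraries, including rd10 1, whose Egr1 level alone did not stand out from wild type. Within rd10 the highest ratio was 1.09 times the lowest, which ranked 4 of 14299 genes (median 3.89), after Nr4a1 at rank 2 and ahead of Fosb at rank 9.

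Fosb was low relative to Fos in rd10: it had 0.0708, 0.0604 and 0.0662 reads per Fos read in rd10 1, 2 and 3, 0.122, 0.140 and 0.176 in GFP 1, 2 and 3, and 0.154, 0.0904 and 0.25 in wild type 1, 2 and 3. Every rd10 library was below every normal one, as was also the case for Atf3, at 0.0288 to 0.108 in rd10 against 0.119 to 1.41 in the normal libraries. The Fosb ratios rest on 17, 42 and 66 Fosb reads in rd10 1, 2 and 3, and the lowest normal ratio, that of wild type 2, on 51. Counting error on so few reads was not assessed, either for this gap or for the rank of Fosb within rd10. Of the 8 ratios to Fos, 1 lay above all normal libraries in all 3 rd10 libraries, beside 0.699% of all genes, 2 lay below, beside 3.95%, and 5 overlapped. Fos itself spread 3.85-fold within rd10 and 3.44-fold within wild type, so the ratio of a gene that does not vary with Fos overlaps easily. The shares over all genes are low through this choice of divisor, and the counts are a description without a test.

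**Figure D3:**
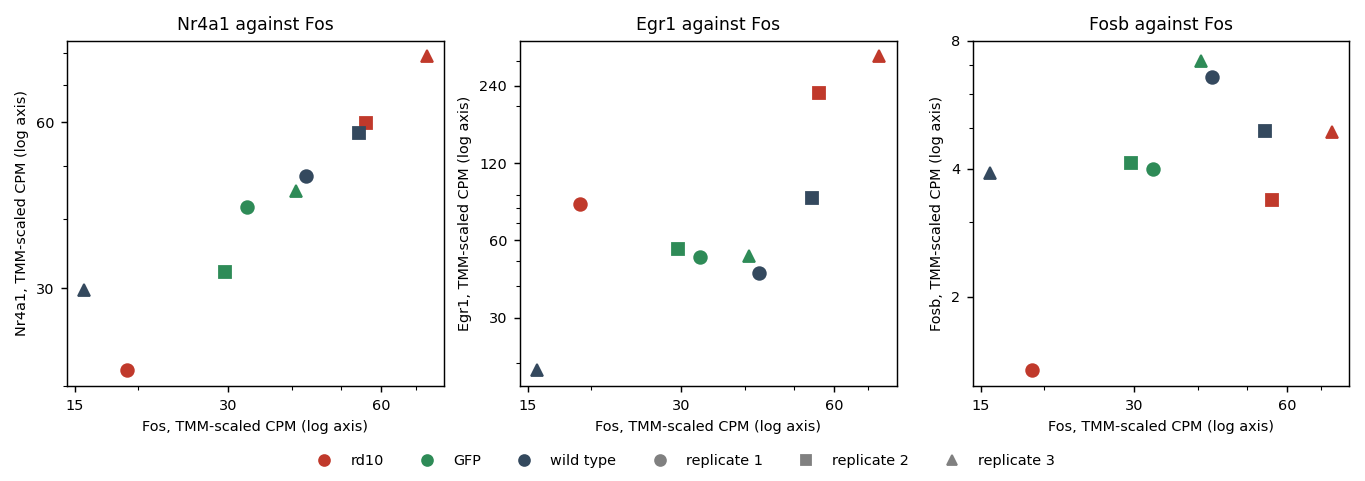
Each point is 1 library, with Fos on the x axis and Nr4a1, Egr1 or Fosb on the y axis, all in TMM-scaled CPM on log axes, colour for the group and shape for the replicate number. Nr4a1 rises with Fos along about the same line in every group, while at a given Fos level the 3 rd10 libraries lie higher for Egr1 (4.02 to 4.39 reads per Fos read, against 1.05 to 1.89) and lower for Fosb.

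The promoters of 8 members were matched in the RefSeq table (GRCm38.p6), in 12 windows because Egr2 has several start sites. Those of Fos, Nr4a1, Junb and Fosb are shown because these genes followed Fos most closely or departed from it by group, and that of Atf3 because it fell. Each run gives the 250 bases before the start site, 5′ to 3′ on the gene's strand, from chr12:85473640-85473889 (plus strand) for Fos, chr15:101266596-101266845 (plus) for Nr4a1, chr8:84978749-84978998 (minus) for Junb, chr7:19310046-19310295 (minus) for Fosb and chr1:191183334-191183583 (minus) for Atf3. Capitals mark TGACG, the core of the site that CREB and ATF proteins bind, GCGNGGGCG, the EGR consensus, both read on either strand (the first then appears as CGTCA), and TATAAA on the gene's strand.
Fos: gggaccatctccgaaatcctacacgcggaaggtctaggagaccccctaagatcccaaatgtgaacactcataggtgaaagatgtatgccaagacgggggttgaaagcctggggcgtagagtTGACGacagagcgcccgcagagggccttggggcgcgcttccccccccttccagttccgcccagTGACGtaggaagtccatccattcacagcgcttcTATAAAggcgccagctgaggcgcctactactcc
Nr4a1: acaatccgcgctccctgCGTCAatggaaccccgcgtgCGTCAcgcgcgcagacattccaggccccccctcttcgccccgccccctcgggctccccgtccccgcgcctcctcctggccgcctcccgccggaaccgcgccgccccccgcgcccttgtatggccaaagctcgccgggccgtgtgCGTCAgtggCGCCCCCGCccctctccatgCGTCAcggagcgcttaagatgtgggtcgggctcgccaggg
Junb: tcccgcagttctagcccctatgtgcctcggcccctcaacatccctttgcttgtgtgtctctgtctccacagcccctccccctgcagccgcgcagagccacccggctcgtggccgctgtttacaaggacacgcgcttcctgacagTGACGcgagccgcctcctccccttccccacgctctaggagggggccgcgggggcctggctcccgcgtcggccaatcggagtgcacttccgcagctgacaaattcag
Fosb: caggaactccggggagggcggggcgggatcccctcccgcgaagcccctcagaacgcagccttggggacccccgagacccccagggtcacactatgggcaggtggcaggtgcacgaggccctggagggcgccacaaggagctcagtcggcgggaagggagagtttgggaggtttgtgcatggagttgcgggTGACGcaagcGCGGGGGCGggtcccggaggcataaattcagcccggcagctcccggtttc
Atf3: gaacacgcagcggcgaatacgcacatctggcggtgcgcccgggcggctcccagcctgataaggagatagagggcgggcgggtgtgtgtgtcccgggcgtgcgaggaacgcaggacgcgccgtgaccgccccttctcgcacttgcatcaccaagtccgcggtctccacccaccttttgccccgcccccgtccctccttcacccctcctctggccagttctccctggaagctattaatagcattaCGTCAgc
Fos held TGACG at -129 to -125 and at -66 to -62, counted back from -1 just before the start, and TATAAA at -33 to -28. Nr4a1 held 4 copies of TGACG, and between the last 2 of them an EGR match at -60 to -52. Junb had 1 copy at -106 to -102, Fosb 1 at -60 to -56 followed by an EGR match at -50 to -42, and Atf3 1 at -7 to -3. TGACG was present for 6 of the 8 members matched, beside 17.8% of 32851 promoter windows of this length. The EGR match was present for 2 of 8, beside 4.70%. Members were counted by gene, with a match in any window, whereas the background was counted by single window. Egr2, with several windows, thus had more openings for a match than a single window has. TATAAA was found in 1 of 8, beside 7.59% of windows, and the CArG box of serum response factor in 1 of 8 (Egr2), beside 1.47%. None of the 8 members held the whole palindrome TGACGTCA (1.55% of windows), which contains TGACG, or the AP-1 letters TGANTCA (6.75%) on either strand. Sites beyond these 250 bases were not searched, and neither were Egr1 and Egr3, whose promoters were not matched. A missing match here therefore does not mean that a gene lacks the site. A match of letters is not evidence of binding.

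The spread between libraries of a group was wide for part of the members. In rd10, the highest library was 3.85 times the lowest for Fos, 3.75 times for Egr1, 3.67 times for Nr4a1, 3.31 times for Fosb and 5.25 times for Egr3, beside a median of 1.29 times over all genes, and 6 of 9 members lay above the 90th percentile of all genes. In GFP the median of all genes was 1.54 times, and 1 member (Egr3) lay above its 90th percentile, with Egr1 at 1.07 times, in the lowest 2.72% of genes. In wild type, 3 members did (Fos, Egr1 and Atf3), at 3.44, 4.63 and 3.36 times, beside a median of 1.43 times. These percentiles took genes of every level together, and few reads widen such ratios, as may hold for Fosb and for Egr3 (2 reads in GFP 2).

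Over all 9 libraries, edgeR's biological coefficient of variation, the spread beyond counting noise, was 0.434 for Egr1, 2.09 times the value fitted for genes of its level. It was 0.413 for Fos (1.85 times), 0.345 for Nr4a1 (1.60 times) and 0.164 for Jun (0.75 times), beside a median of 0.220 over all genes. Egr1 and Fos lay at the percentiles 98.9 and 98.0 of this relative figure, Egr3 at 94.9, Fosb at 79.2 and Jun at 19.8.

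**Figure D4:**
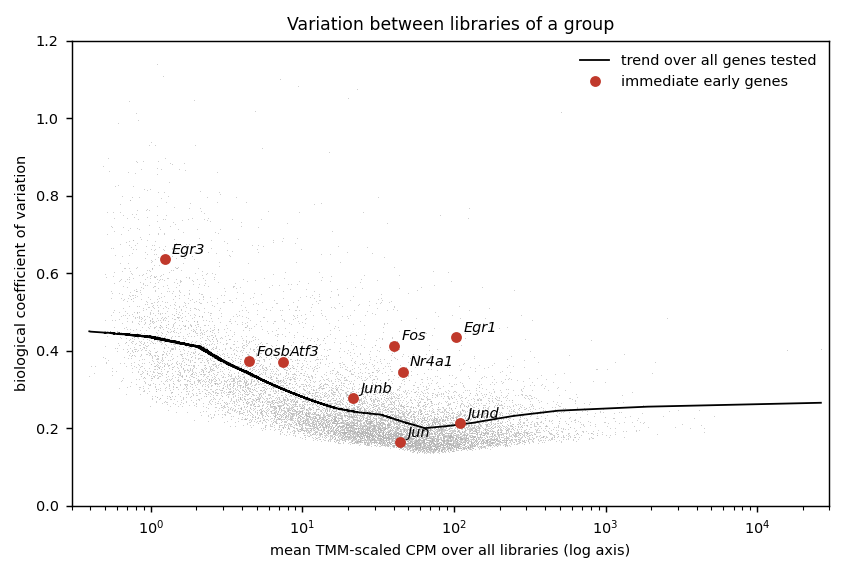
Each grey dot is 1 of 14300 genes, with the mean TMM-scaled CPM on the x axis (log) and the biological coefficient of variation within groups on the y axis, the black line is the trend fitted over all genes, and red points are 9 immediate early genes. Egr1 (0.434), Fos (0.413) and Nr4a1 (0.345) lie well above the line and Jun (0.164) lies below it.

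Between the normal groups no member passed. Of the 9 members, 0 passed in GFP against wild type in edgeR, where 0% of all genes passed, with 0 members and 214 genes at an unadjusted p under 0.05. DESeq2 called 1 gene, and no member. The ranges of 0 of 9 members did not overlap, beside 3.99% of all genes (1.52% higher and 2.46% lower). The log2 differences of GFP from wild type lay between -0.75 (Atf3) and 0.24 (Egr3), and the 95% intervals were wide, for example -1.05 to 1.22 for Egr1 and -1.20 to 0.94 for Fos, but -0.30 to 0.42 for Jun. For 8 of the 9 members the sign of this difference changed in at least 1 alternative, Atf3 being the exception. With the 6 normal libraries taken as 1 control group, rd10 gave a log2 change of 2.00 for Egr1 (edgeR adjusted p = 0.00445) and -2.08 for Atf3 (0.00349).

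The genes whose profiles over the 9 libraries lay nearest to 3 of the members were sought among 11706 genes by the root mean square difference of centred log2 CPM. Any likeness of their levels to those of the member follows from this choice and is not a separate result. Nearest to Fos was Sik1 (0.36, beside a median of 0.77), which encodes a salt-inducible kinase, followed by Abcc9, Itpr2 and Irs2. Sik1 had 10.8, 24.2 and 27.0 CPM in rd10 1, 2 and 3, 21.8, 12.4 and 25.0 CPM in GFP 1, 2 and 3, and 24.2, 29.8 and 13.8 CPM in wild type 1, 2 and 3. Like Fos, it was lowest in rd10 1 and highest in rd10 3 within that group, and lowest in wild type 3 within its own.

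Nearest to Egr1 was Socs3 (0.51, beside a median of 1.21), which encodes a feedback inhibitor of cytokine signalling, with Itgam and Chi3l1 also among the nearest. Socs3 had 6.01, 14.8 and 9.66 CPM in rd10 1, 2 and 3, 3.08, 3.32 and 3.05 CPM in GFP 1, 2 and 3, and 3.53, 4.81 and 2.31 CPM in wild type 1, 2 and 3. All 3 rd10 libraries were above all 6 normal ones, again with rd10 1 the lowest of the rd10 libraries. Nearest to Atf3 were Fam154b (0.375, beside a median of 1.07) and Trib3 (0.42), a pseudokinase gene known as a target of ATF4, followed by Cdan1 and BC025920. Trib3 had 2.45, 1.45 and 3.02 CPM in rd10 1, 2 and 3, 7.17, 9.28 and 6.77 CPM in GFP 1, 2 and 3, and 6.56, 6.35 and 10.03 CPM in wild type 1, 2 and 3. Trib3, picked for its likeness to Atf3, was lower in every rd10 library than in any normal one, and highest in wild type 3.

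Among 16 tested AP-1 and basic leucine zipper relatives (of 20 listed), 3 rose and 1 fell in rd10 against wild type, where 28.4% of all genes passed. Against GFP 3 rose and 3 fell, where 30.2% of all genes passed. The median log2 change was 0.05 against wild type and -0.30 against GFP. Those that rose against wild type were Cebpd and Cebpb, C/EBP factors of the acute-phase response, and Jdp2, a repressor that dimerizes with JUN. Cebpd averaged 32.6 ± 6.28 CPM in rd10, 13.1 ± 1.18 CPM in GFP and 13.8 ± 1.94 CPM in wild type (SD, n = 3 each), with an edgeR adjusted p of 0.00168 against wild type. Atf4, the main factor of the integrated stress response and an activator of Atf3 in many cells, fell to 166 ± 13.2 CPM in rd10, against 373 ± 69.6 CPM in GFP and 359.8 ± 37.9 CPM in wild type (edgeR adjusted p = 0.00105 and 0.00146). Creb1, which encodes CREB, fell against GFP alone of the normal groups (log2 -0.54, edgeR adjusted p = 0.0206), a call that ended without rd10 1 or rd10 3 and with library totals or upper quartile scaling. Its log2 value against wild type was -0.26 (edgeR adjusted p = 0.204), or 0.022 with library totals, and whether these differences differ was not tested.

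Of 5 EGR and NR4A relatives and corepressors, none passed in either comparison in edgeR, beside 28.4% of all genes against wild type and 30.2% against GFP. In edgeR, 2 against wild type and 0 against GFP had an unadjusted p under 0.05, and DESeq2 called 2 and 0. Median log2 changes were 0.45 against wild type and 0.07 against GFP. Nab1, which encodes a corepressor of EGR proteins and had the highest level in this list, averaged 42.8 ± 6.48 CPM in rd10, 40.8 ± 4.93 CPM in GFP and 31.6 ± 6.54 CPM in wild type (edgeR adjusted p = 0.806 for rd10 against GFP and 0.123 for rd10 against wild type).

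Of 35 other immediate early and rapid response genes, 5 rose, 4 fell and 26 did not pass against wild type, beside 28.4% of all genes passing. Against GFP 5 rose, 3 fell and 27 did not pass, beside 30.2% (medians 0.25 against wild type and 0.14 against GFP). The largest fall was that of Sgk1, a kinase gene induced by glucocorticoids and osmotic stress, at 50.2, 84.2 and 90.1 CPM in rd10 1, 2 and 3, 502.2, 489 and 484 CPM in GFP 1, 2 and 3, and 512, 516 and 396 CPM in wild type 1, 2 and 3. No rd10 library came near the normal range, and the level was 6.57-fold lower than in GFP and 6.34-fold lower than in wild type (edgeR adjusted p = 1.44e-05 and 1.72e-05). Gadd45a, a growth arrest and DNA damage gene, fell to 12.7 ± 1.30 CPM in rd10, against 41.5 ± 13.7 CPM in GFP and 31.8 ± 1.38 CPM in wild type (SD, n = 3 each). Ier3, a further early response gene, fell to 17.9 ± 2.17 CPM in rd10, against 50.1 ± 13.8 CPM in GFP and 45.9 ± 7.28 CPM in wild type. Zfp36l1, which encodes a protein that destabilizes AU-rich messenger RNA, rose to 62.7 ± 3.06 CPM in rd10, against 31.0 ± 7.47 CPM in GFP and 27.4 ± 2.25 CPM in wild type.

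Of 30 kinases and factors that act on these promoters, 9 rose, 1 fell and 20 did not pass against wild type, beside 28.4% of all genes passing. Against GFP 7 rose, 0 fell and 23 did not pass, beside 30.2% (medians 0.33 against wild type and 0.25 against GFP). Rps6ka4, a nuclear kinase that phosphorylates CREB and histone H3, averaged 70.4 ± 6.42 CPM in rd10, 42.3 ± 1.80 CPM in GFP and 44.1 ± 0.360 CPM in wild type (SD, n = 3 each). Camk2b, a calcium and calmodulin kinase subunit, averaged 280.9 ± 32.9 CPM in rd10, 156 ± 23.0 CPM in GFP and 163.9 ± 8.52 CPM in wild type. Mapk10, the neuronal JUN kinase gene, averaged 200.0 ± 12.2 CPM in rd10, 120.1 ± 9.66 CPM in GFP and 128 ± 6.49 CPM in wild type. Elk3, a ternary complex factor, averaged 15.6 ± 1.70 CPM in rd10, 8.27 ± 1.36 CPM in GFP and 7.79 ± 0.929 CPM in wild type. All 4 rose in both comparisons in edgeR, by 0.64 to 1.00 on the log2 scale.

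Of 11 feedback inhibitors of MAP kinase signalling (of 12 listed), 2 rose, 2 fell and 7 did not pass in each comparison. Over all genes, 28.4% passed against wild type and 30.2% against GFP. Dusp6, an ERK phosphatase that ERK signalling itself induces, had 32.2, 41.0 and 51.9 CPM in rd10 1, 2 and 3, 13.3, 17.3 and 24.8 CPM in GFP 1, 2 and 3, and 18.0, 22.5 and 13.9 CPM in wild type 1, 2 and 3. All rd10 libraries lay above all normal ones, with the same order of the rd10 libraries as for Fos. It rose by 1.20 (SE 0.28, adjusted p = 0.00977 in edgeR) against wild type and 1.17 (SE 0.28, adjusted p = 0.0104 in edgeR) against GFP on the log2 scale. Spry1, an inhibitor of receptor tyrosine kinase signalling, also rose (log2 1.10 against wild type and 1.03 against GFP), whereas Dusp7 (-1.19 and -1.32) and Spry2 (-0.81 and -1.06) fell.

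Of 14 heat shock genes, 1 rose and 5 fell against wild type, beside 28.4% of all genes passing. Against GFP 1 rose and 4 fell, beside 30.2% (medians -0.20 against wild type and -0.38 against GFP). Hspa1a, the inducible 70-kilodalton chaperone gene, had 3.95, 2.58 and 3.84 CPM in rd10 1, 2 and 3, 43.8, 50.9 and 51.5 CPM in GFP 1, 2 and 3, and 38.2, 44.4 and 27.5 CPM in wild type 1, 2 and 3. The groups were far apart, and the level in rd10 was 14.0-fold lower than in GFP and 10.6-fold lower than in wild type (edgeR adjusted p = 2.18e-06 and 4.73e-06). Hspa1b is a nearly identical copy, how reads shared by the copies were counted is not given in the sources used here, and the split between them is uncertain. Hspa1b was 17.9-fold lower than in GFP and 13.3-fold lower than in wild type. Hsp90aa1, which encodes a cytosolic chaperone, fell by 1.52 against GFP and by 1.21 against wild type on the log2 scale, and Dnajb1, which encodes an HSP40 co-chaperone of HSP70, fell by 0.93 and 0.55. Bag3, a further co-chaperone gene, rose to 22.5 ± 1.56 CPM in rd10, against 12.9 ± 3.78 CPM in GFP and 11.2 ± 0.356 CPM in wild type.

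Of the list genes named above, Sgk1, Hspa1a, Hspa1b and Dusp7 kept their calls in both comparisons under every alternative tried. Against wild type, leaving out the 4 libraries with lens RNA, which leaves 1 wild type library, ended the calls of Atf4, Cebpb, Cebpd, Jdp2, Gadd45a, Ier3, Zfp36l1, Rps6ka4, Camk2b, Mapk10, Elk3, Dusp6, Spry1, Spry2, Hsp90aa1, Dnajb1 and Bag3. Against GFP it ended those of Creb1, Jdp2, Zfp36l1, Rps6ka4, Mapk10, Elk3, Dusp6, Spry1 and Bag3. The calls of Cebpb, Jdp2, Dnajb1 and Bag3 also ended, in at least 1 comparison, when single libraries were left out, and those of Dnajb1 and Spry2 against wild type ended with library totals.

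**Figure D5:**
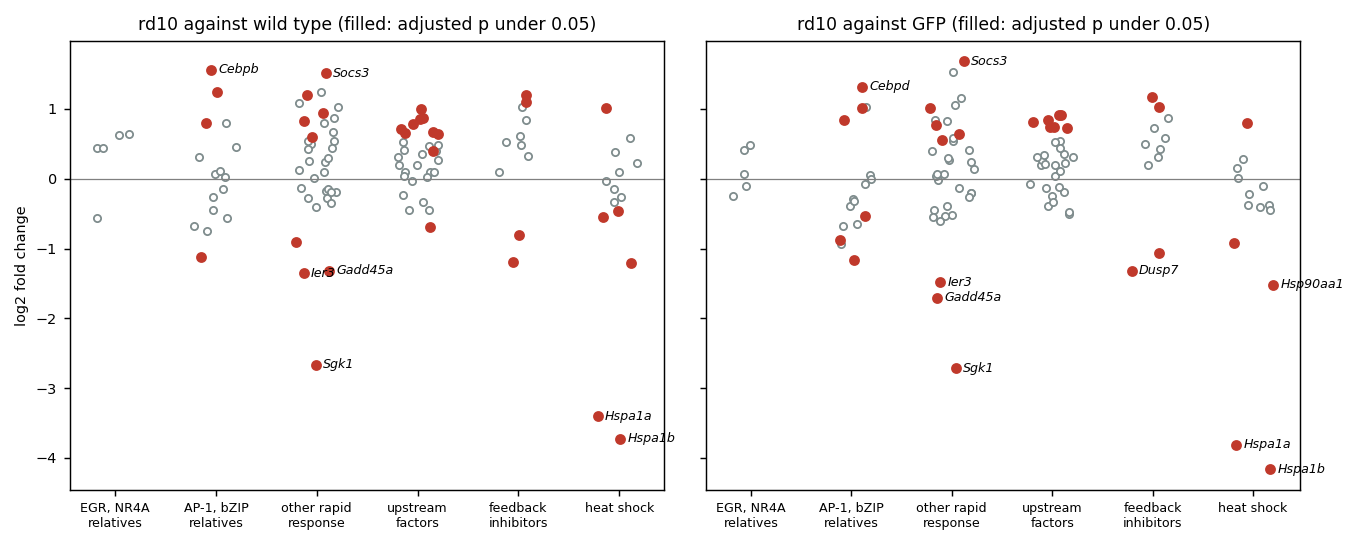
Each point is 1 gene, placed by its list (x axis) and its log2 fold change (y axis) for rd10 against wild type (left) and rd10 against GFP (right), filled for an adjusted p under 0.05 in edgeR, with names for the genes farthest from 0. Hspa1a, Hspa1b and Sgk1 lie lowest in both panels, and no EGR or NR4A relative is filled.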

How the data were processed

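Polyadenylated RNA of whole mouse retina was sequenced in 9 libraries. The authors deposited raw counts of reads per gene, on the mm9 genome per the submitters' processing notes; the aligner, the counter, the annotation and whether strand was used are not given in the sources used here. Every table lists 21769 genes, 4230 of them at 0 in every library. Counts were filtered with edgeR's filterByExpr (minimum count 10, minimum total 15), which left 14300 genes, and scaled by TMM. The 9 libraries entered 1 quasi-likelihood model in edgeR 4.0.16 (R 4.3.3) with a mean for each group and Benjamini-Hochberg adjustment over all genes tested. Where libraries of a group do not come from separate animals, the p-values measure only technical spread. Alternatives were library totals, upper quartile scaling, no filter, a mean of at least 1 CPM, DESeq2 1.42.0, the 6 libraries compared alone, both normal groups as controls, a replicate block, each library left out, the 4 libraries with lens RNA left out, and wild type 3 and GFP 2 left out, which were known from earlier results to stand apart. Log2 CPM used a prior count of 2. Gene positions are those deposited with the counts. Promoters come from RefSeq (GRCm38.p6) without chromosome 18, where Egr1 lies, and 8 of 10 members were matched. Members, lists of pathway and marker genes (183 of 185 entries matched, 1 by an older symbol) and the alternatives were chosen with earlier results of these data known. Named were all members, up to 4 called genes per list and comparison by smallest adjusted p (where none passed, the gene of highest level), and the 4 genes nearest in profile to Fos, Egr1 and Atf3, of which 1 is not reported here.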

Additional observations from a re-analysis of the deposited data

How the results depend on the processing

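Without rd10 1, 2 or 3 or any other single library, 2455 to 5421 genes were called in rd10 against wild type, 2602 to 4404 in rd10 against GFP and 0 to 4 in GFP against wild type, where DESeq2 called 1. Between 1 and 2 members were called in each rd10 comparison under the same omissions. Without the 4 libraries with lens RNA, which leaves 1 wild type library assumed to vary like the other groups, 543 genes and 0 members were called in rd10 against wild type, and 1846 genes and 0 members in rd10 against GFP; fewer samples entered these fits. The replicate numbers did not pair the libraries: same-numbered deviations correlated between -0.37 and 0.36, and with a replicate block 3606, 3908 and 0 genes and 2, 2 and 0 members were called in rd10 against wild type, rd10 against GFP and GFP against wild type. The members called were Egr1 and Atf3 in the fits without and with the block.

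Signs changed only for differences that had not passed. Creb1 in rd10 against wild type moved to 0.022 with library totals. In GFP against wild type, Fosb reached 0.0056 without the filter and 0.0077 in DESeq2. Without wild type 3 and GFP 2, Jund moved to -0.088 and Egr1 to -0.35, and without the libraries with lens RNA Jun moved to -0.025 and Egr3 to -0.013. Leaving out single libraries gave ranges in GFP against wild type of -0.33 to 0.23 for Fosb, -0.50 to 0.24 for Fos, -0.36 to 0.68 for Egr3, -0.40 to 0.038 for Nr4a1, -0.022 to 0.17 for Jun, -0.31 to 0.75 for Egr1, -0.15 to 0.33 for Jund and -0.0035 to 0.46 for Junb. In rd10 against wild type Nr4a1 ranged from -0.13 to 0.65. In rd10 against GFP Egr3 ranged from -0.16 to 1.80 and Nab1 from -0.0045 to 0.21. The cause of these changes was not tested. With 3 libraries per group, the 95% intervals of Fos, Junb and Nr4a1 in both rd10 comparisons include 0, and Egr2 and Egr3 rest on few reads.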
